A study of Mus musculus with 37 samples.

Results

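Claudins and occludin are the membrane proteins of the tight junction strand, and 10 genes of this kind were followed through acute and chronic colitis in mouse colon: Cldn1, Cldn2, Cldn3, Cldn4, Cldn7, Cldn8, Cldn12, Cldn15, Cldn23 and Ocln. Each was read from the array's transcript cluster annotated to that symbol alone. Each of the 10 had 1 such cluster, so no choice between clusters was needed, and they were 10 of 19938 genes measured. Colon RNA of 37 mice had been hybridized singly to Affymetrix gene arrays. Wild types were C57BL/6J mice, and knockouts were of the strain B6.129S4-Timp1tm1Pds/J. Its targeted Timp1 allele is present in every cell of the body, and the gene encodes a secreted inhibitor of matrix metalloproteinases. Some received dextran sodium sulphate (DSS) by mouth, a polysaccharide that injures the colonic epithelium, in an acute or a chronic protocol, and each protocol had its own control mice in both genotypes. In the acute protocol there were 3 control and 5 DSS mice among the wild types and 3 control and 6 DSS mice among the knockouts, and the chronic protocol had 5 mice in each of its 4 groups. Dose, duration, age and sex are not given in the sources used here, nor is the segment of colon that was taken.

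Tight junctions close the space between neighbouring epithelial cells near the lumen. Claudins form the strands and decide what passes: some seal the space and others form pores for small ions and water. Occludin lies in the same strands and takes part in their assembly and in their opening during inflammation. In the bowel, Cldn3, Cldn4, Cldn7, Cldn8, Cldn23 and Ocln were taken here as the sealing members. Cldn2, a channel for sodium and water, Cldn15, a sodium channel needed for nutrient uptake, and Cldn12, linked to the passage of calcium, were taken as the pore-forming members. Cldn1 seals the skin barrier, is low in healthy colonic epithelium and has been described as raised in inflamed bowel.

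The promoters of 3 members are shown because these genes bear on the results below in different ways: Cldn4 and Cldn15 were the 2 members higher in wild-type chronic colitis, and Cldn2 is the leak claudin that was not. The sequences are RefSeq's, build GRCm38.p6, 250 bases upstream of an annotated start, written 5′ to 3′ on the gene's strand. For Cldn4 they lie at chr5:134946935-134947184 on the minus strand and for Cldn15 at chr5:136967619-136967868 on the plus strand, and capitals mark matches to TGANTCA, the site of AP-1 factors. For Cldn2 they lie at chrX:139800558-139800807 on the plus strand, and the capitals show 2 motifs. One is the intestinal CDX factor motif TTTATG. The other is the core promoter motif TATAAA.
Cldn4: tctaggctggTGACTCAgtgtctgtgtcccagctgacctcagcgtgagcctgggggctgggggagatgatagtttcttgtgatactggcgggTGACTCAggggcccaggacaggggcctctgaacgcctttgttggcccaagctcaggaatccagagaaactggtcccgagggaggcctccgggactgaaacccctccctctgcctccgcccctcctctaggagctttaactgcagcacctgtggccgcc
Cldn15: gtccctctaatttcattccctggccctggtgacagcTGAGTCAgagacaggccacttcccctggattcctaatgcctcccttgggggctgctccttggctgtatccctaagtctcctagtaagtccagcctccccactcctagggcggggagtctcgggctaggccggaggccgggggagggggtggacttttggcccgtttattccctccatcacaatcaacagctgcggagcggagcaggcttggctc
Cldn2: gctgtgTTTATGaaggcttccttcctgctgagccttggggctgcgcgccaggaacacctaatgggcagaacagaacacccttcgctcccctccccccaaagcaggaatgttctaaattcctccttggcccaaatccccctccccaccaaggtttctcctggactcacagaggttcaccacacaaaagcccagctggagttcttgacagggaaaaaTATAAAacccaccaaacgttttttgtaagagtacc

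The Cldn4 window held 2 AP-1 matches, with first bases 240 and 158 bases upstream of the start, and the Cldn15 window held 1, at 214. Of 32851 promoter windows of the same length, 6.75% held at least 1 match to TGANTCA on either strand, 10.8% held TTTATG and 12.4% held TATAAA. In Cldn2 the TTTATG match began 244 bases and the TATAAA match 35 bases upstream. The table held 12 windows for 8 of the 10 members, without Cldn8 and Cldn23, and Cldn4 and Cldn15 were the members whose windows matched TGANTCA. The E-box CAGGTG, bound by Snail and ZEB repressors, was found in 17.2% of all windows and in windows of Cldn4, Cldn7 and Ocln. The STAT motif TTCNNNGAA, found in 7.02% of all windows, was present in windows of Cldn12 and Cldn7. The grainyhead-like motif AACNGGTT (1.79% of windows) and the HNF4 motif CAAAGTCCA (0.384%) were in no window of the members. A match is a stretch of letters and not a measured binding site, and no link between a motif and the members' differences was tested. The E-box match of Cldn4 began 14 bases upstream and is not in capitals above.

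The labelled tissue carried its markers. The 10 genes of a pan-epithelial list (among them Epcam, Cdh1, Krt8 and Vil1) had a mean log2 signal between 12.24 and 12.42 in every control array. Wild-type mice on acute DSS had lower values in replicate 3 (10.66) and replicate 1 (11.52), while the other 3 mice of that group were at 12.19 to 12.20. Results for the members that rest on those 2 arrays are given below with and without them. Fibroblast genes averaged 10.55 to 10.73 in wild-type acute controls and 11.30 to 12.31 in wild-type acute DSS, and neutrophil genes 5.98 to 6.04 and 8.26 to 10.90. Fewer epithelial cells and less RNA per epithelial cell cannot be told apart in whole tissue. Timp1 in the knockouts differed from wild type by -3.14 ± 0.33 under acute DSS (SE, limma adjusted p = 1.34e-07), but the knockout and wild-type controls differed by -0.62 ± 0.44 in the acute protocol (adjusted p = 0.608); whether the probes lie in the deleted part is not given in the sources used here. All values below are log2 signals, so a difference of 1 is a doubling or halving, and differences carry the standard error of limma's fit. A gene was called at an adjusted p under 0.05 over all 19938 genes.

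**Figure D1:**
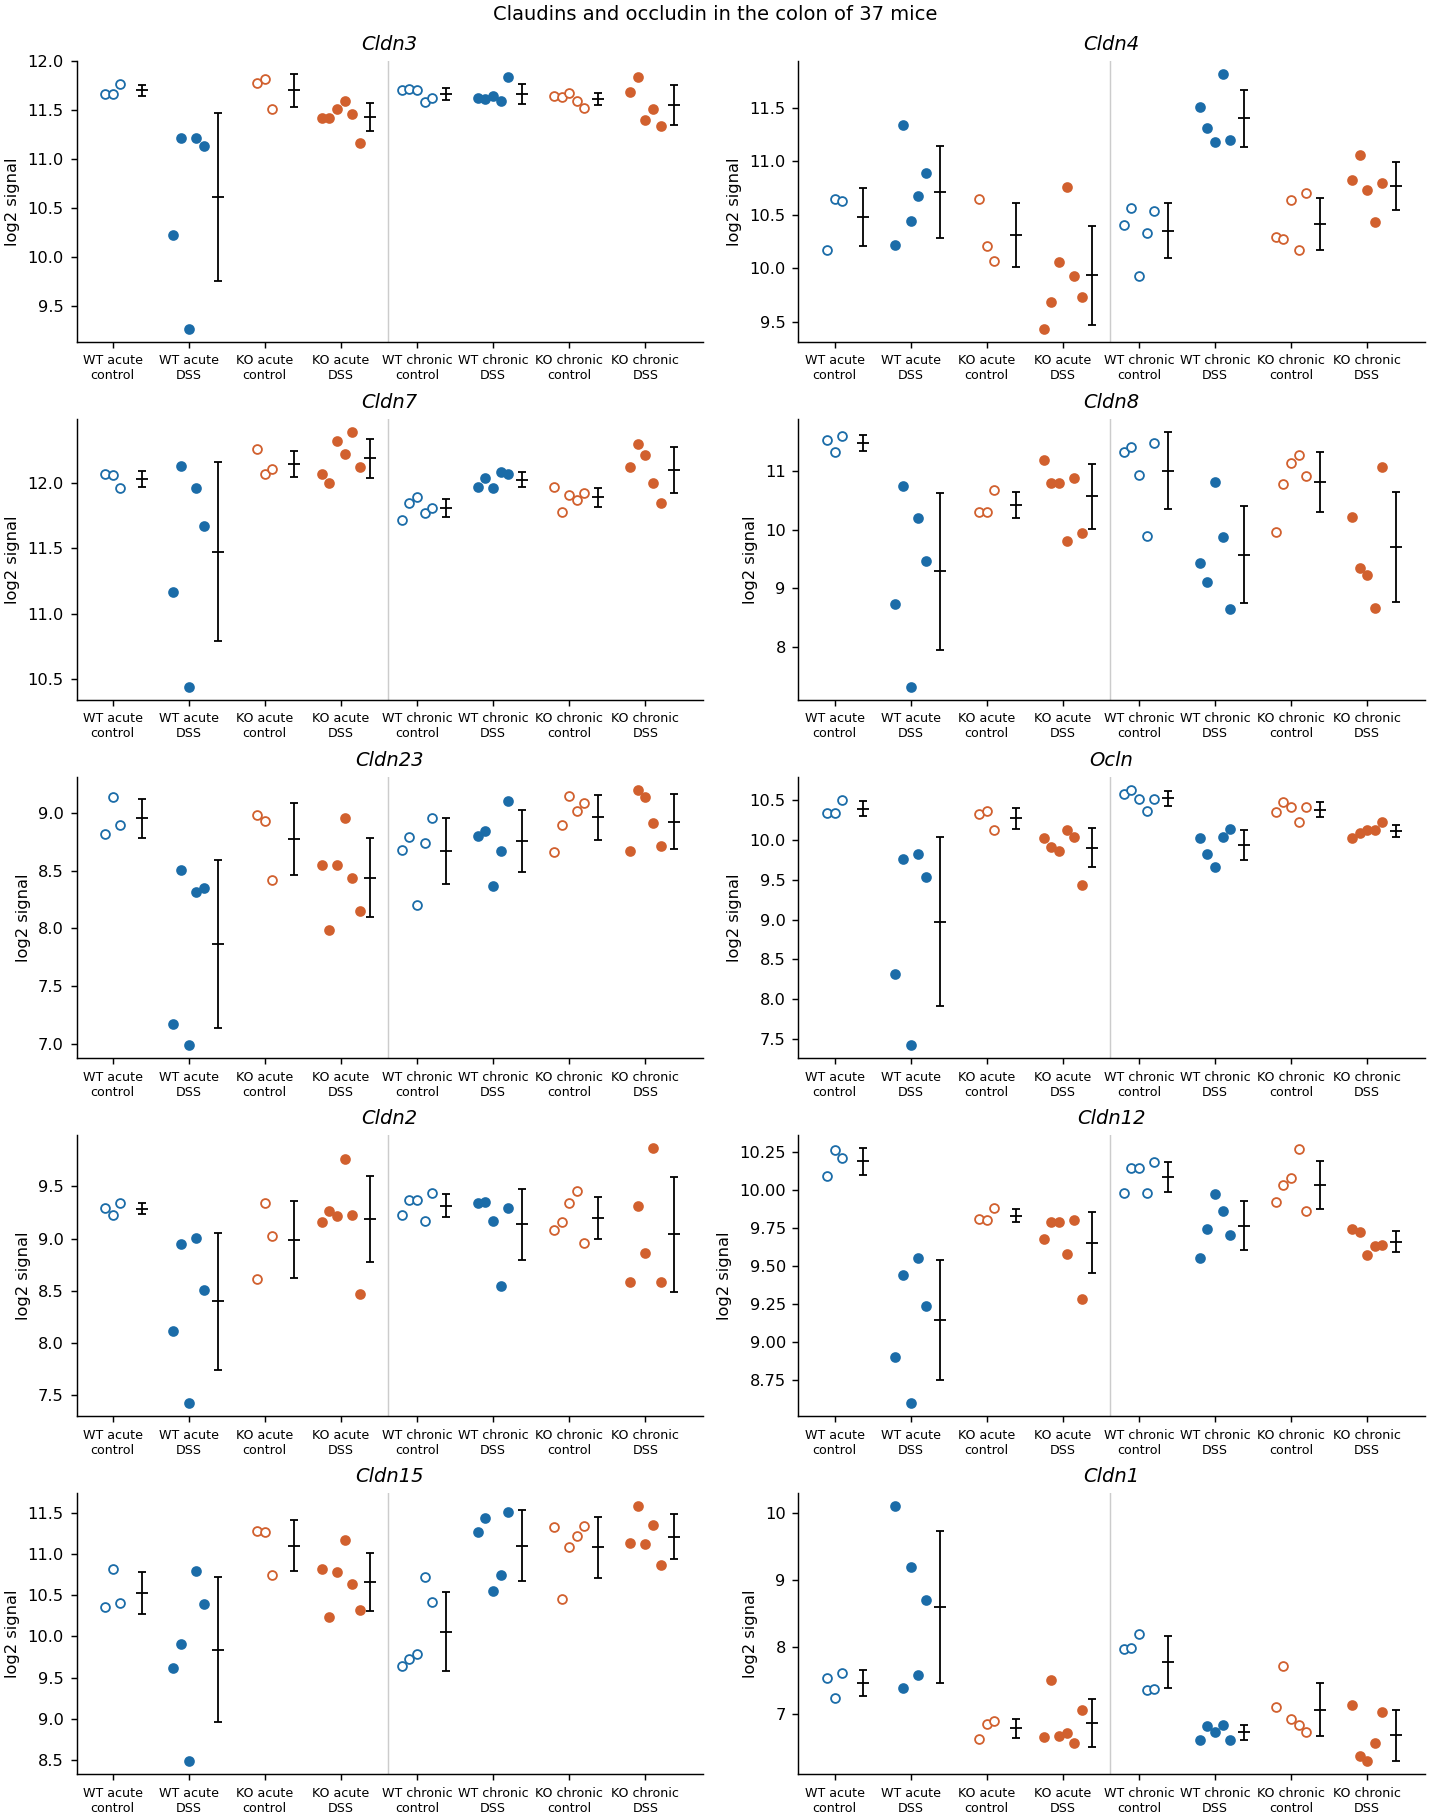
Log2 signal of each member (vertical axis) in every array, by genotype, protocol and treatment (horizontal axis), with open points for controls, filled points for DSS, and bars for mean ± SD. For Cldn8, wild-type acute DSS ranged from 7.31 to 10.75, and the filled wild-type chronic points of Cldn4 (11.18 to 11.82) lay above every control.

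In control colon most members had similar levels in both genotypes and protocols, and Cldn15, Cldn1 and Cldn8 varied most. Cldn3 averaged between 11.62 and 11.70 in the 4 control groups, Ocln between 10.27 and 10.52, Cldn4 between 10.31 and 10.49 and Cldn2 between 8.99 and 9.31. Cldn15 varied more: it was at 10.06 ± 0.48 (SD, n = 5) in wild-type chronic controls, 10.53 ± 0.25 (n = 3) in wild-type acute controls, and 11.08 ± 0.37 (n = 5) and 11.10 ± 0.31 (n = 3) in the knockout controls of the chronic and acute protocols. Cldn1 ranked the other way, at 7.77 ± 0.39 and 7.46 ± 0.20 in the wild-type chronic and acute controls against 7.06 ± 0.39 and 6.79 ± 0.14 in the knockout ones. Cldn8 was at 11.49 ± 0.14 in wild-type acute controls and 10.43 ± 0.23 in knockout acute controls. No member passed between the acute controls, where 1.12% of all genes passed, or between the chronic controls, where 0.1% did (0 of 10 by limma in both). At an unadjusted p under 0.05 the counts were 1 of 10 between acute controls, where 13.1% of all genes passed, and 2 of 10 between chronic controls, where 9.46% did. The acute control groups did not overlap for 4 of 10 members, Cldn1, Cldn7, Cldn8 and Cldn12, nor for 25.8% of all genes. With limma fitted on these arrays alone, Cldn1 (-0.68 ± 0.12, adjusted p = 0.0183), Cldn8 (-1.06 ± 0.12, adjusted p = 0.00542) and Cldn12 (-0.36 ± 0.08, adjusted p = 0.0378) passed. In that fit 964 of 19938 genes passed. Animal numbers in the titles fall into 4 series, which may mark separate cohorts, and the wild-type acute controls were all of one series and the knockout acute controls all of another, so genotype and series cannot be told apart in this comparison. The difference of Cldn15 between chronic controls was 1.02 ± 0.29 (adjusted p = 0.166), with a 95% interval from 0.44 to 1.60. Of these wild types, only replicates 4 and 5 were of the knockouts' series. Against those 2 alone, limma gave 0.51 ± 0.21 for Cldn15 (adjusted p = 0.511) and -0.30 ± 0.21 for Cldn1 (adjusted p = 0.657).

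Acute DSS lowered most of the sealing members in wild-type mice. Cldn3, Cldn7, Cldn8, Cldn23 and Ocln fell, and Cldn4 was at 10.71 ± 0.43 (SD, n = 5) against 10.49 ± 0.27 in controls (n = 3). Cldn8, a distal barrier claudin that restricts sodium back-leak, stood at 11.53, 11.33 and 11.60 in controls and at 8.73, 10.75, 7.31, 10.21 and 9.47 on DSS. The groups did not overlap and replicate 3 was lowest. Cldn8 fell by 2.19 ± 0.55, which is 4.57-fold on a linear scale (adjusted p = 0.00191). Ocln stood at 10.34, 10.34 and 10.50 in controls and at 8.31, 9.76, 7.42, 9.83 and 9.54 on DSS, again without overlap, and fell by 1.42 ± 0.29 (2.68-fold, adjusted p = 2.73e-04). Cldn3, a general sealing claudin of the gut, stood at 11.67, 11.67 and 11.77 in controls and at 10.23, 11.22, 9.27, 11.22 and 11.14 on DSS (difference -1.09 ± 0.24, adjusted p = 5.44e-04). Cldn23, a claudin of the differentiated surface epithelium, differed by -1.08 ± 0.26 and Cldn7, which also binds Epcam on the lateral membrane, by -0.56 ± 0.19. The Cldn7 arrays overlapped: controls ranged from 11.96 to 12.07, and of the 5 DSS mice 1 was above that range at 12.13, 1 was at its lower end at 11.96 and the other 3 were below it.

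Of the pore-forming members, Cldn2 and Cldn12 also fell in these mice. Cldn12 stood at 10.09, 10.26 and 10.21 in controls and at 8.90, 9.44, 8.60, 9.55 and 9.24 on DSS, all below every control, and fell by 1.04 ± 0.14 (adjusted p = 1.15e-06), the smallest p among the 10. Cldn2 stood at 9.29, 9.23 and 9.34 in controls and at 8.11, 8.95, 7.42, 9.01 and 8.51 on DSS, a difference of -0.89 ± 0.28 (adjusted p = 0.0123) without overlap. Cldn15 differed by -0.69 ± 0.33 and did not pass (adjusted p = 0.0924). Cldn1 was the exception: it stood at 7.54, 7.24 and 7.61 in controls and at 10.11, 7.39, 9.20, 7.58 and 8.70 on DSS, so 3 of the 5 mice were above every control and the other 2 lay within the control range, and the mean rose 1.13 ± 0.36 (adjusted p = 0.0121). In all, 8 of 10 members passed in this comparison, 7 lower and 1 higher, where 41.2% of all genes passed, 21.8% lower and 19.4% higher. The groups did not overlap for 6 of 10, nor for 39.1% of all genes. Their median difference was -0.96, against 0.01 over all genes.

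Without wild-type acute DSS replicates 1 and 3, the arrays with low epithelial genes, 5 members passed, where 29.6% of all genes did: Cldn3 (-0.51), Cldn8 (-1.34), Cldn12 (-0.78), Cldn23 (-0.56) and Ocln (-0.68). Cldn1 was then at 0.43 (adjusted p = 0.261), Cldn2 at -0.46 (0.19) and Cldn7 at -0.11 (0.431); fitted on the 8 arrays of this comparison alone, 2 members passed, Cldn8 and Cldn12, where 28.8% of all genes did. Of single arrays, leaving out replicate 3 ended the Cldn2 call (-0.64, adjusted p = 0.0515), and leaving out DSS replicate 1 or 3 or control replicate 1 or 2 ended the Cldn7 call (-0.54 to -0.30). The Cldn1 call was also lost without replicate 1 alone (0.76, adjusted p = 0.0507) or without control replicate 2 (1.02, adjusted p = 0.0596).

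Each array was then read a second way, with the mean of the 10 pan-epithelial genes subtracted from every gene, so that a difference is relative to epithelial genes. In wild-type acute DSS 7 of 10 members passed on that scale, where 65.7% of all genes did. Ocln was lower relative to epithelial genes by -0.84 ± 0.16 (adjusted p = 2.16e-04), Cldn8 by -1.61 ± 0.44, Cldn3 by -0.50 ± 0.13, Cldn23 by -0.50 ± 0.19 and Cldn12 by -0.46 ± 0.15, where 2.68% of all genes were lower on that scale. Cldn7 was at 0.02 and Cldn2 at -0.30, neither of which passed. Cldn1 and Cldn4 were higher on that scale, by 1.72 ± 0.46 and 0.81 ± 0.23, but so were 63% of all genes. The subtracted mean was itself lower on DSS, which shifts every gene upwards by the same amount. The median difference on that scale was 0.59 over all genes and -0.38 over the members, so the shares of all genes reflect that shift too. Cldn4 lay between -2.19 and -1.67 in the controls and between -1.52 and -0.22 on DSS, without overlap. Without replicates 1 and 3, 4 members passed on that scale, where 31.5% of all genes did: Cldn3 (-0.37), Cldn4 (0.62), Cldn12 (-0.64) and Ocln (-0.54). Cldn1 (0.57, adjusted p = 0.147), Cldn8 (-1.20, adjusted p = 0.0662) and Cldn23 (-0.42, adjusted p = 0.0776) did not.

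**Figure D2:**
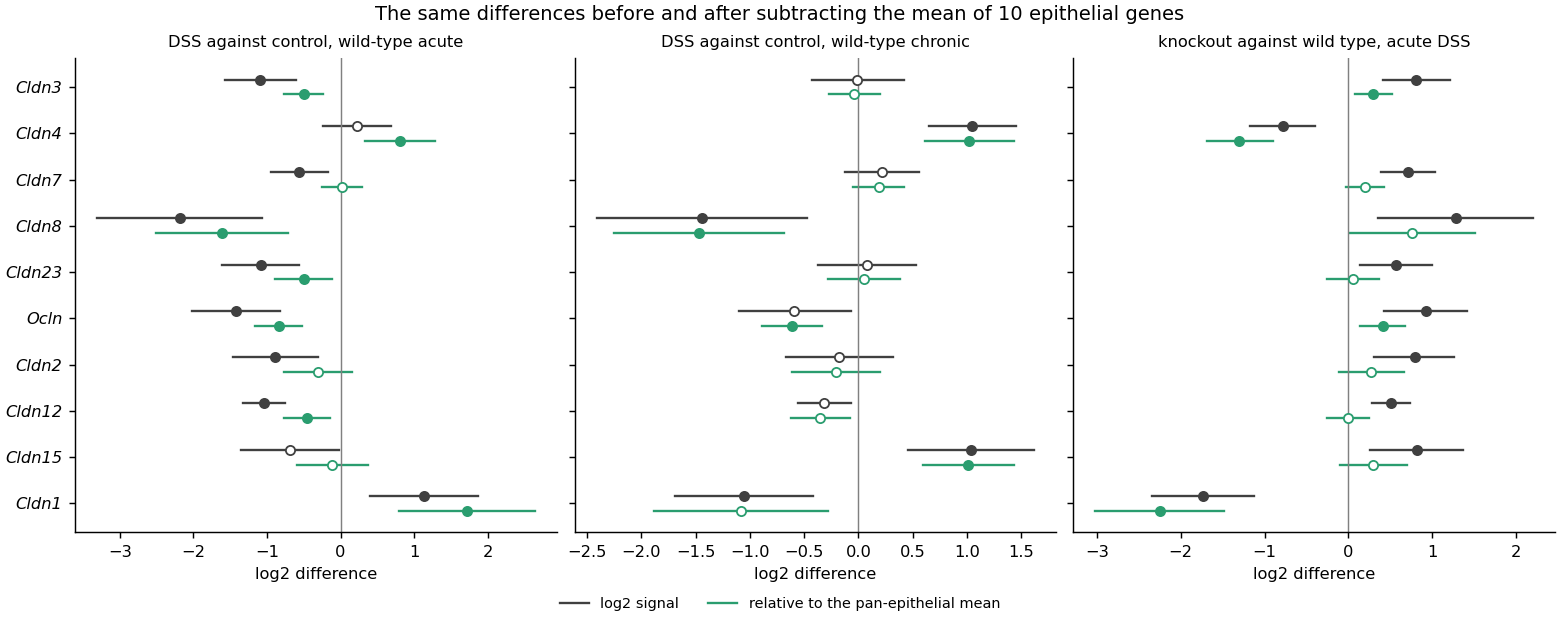
Log2 difference with 95% interval (horizontal axis) of each member (vertical axis) in 3 comparisons, as log2 signal (grey) and relative to the pan-epithelial mean (green), with filled points for calls at an adjusted p under 0.05. In wild-type acute DSS Cldn7 moved from -0.56 to 0.02, and Ocln from -1.42 to -0.84.

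The rest of the junction was read from lists of named genes, beside 21.8% of all genes lower and 19.4% higher in wild-type acute DSS. Of 17 other claudins measured, in wild-type acute DSS 1 was higher (Cldn24, 0.28 ± 0.11) and 0 lower. Their mean signal was 6.93 to 7.08 in the 8 groups, below the lowest array median of 7.67, so a fall in them could go unseen. Of 11 other strand and tricellular genes, 6 were lower and 3 higher, led by Lsr, which recruits tricellulin to corners where 3 cells meet (-1.36 ± 0.22), the adhesion molecule Cxadr (-1.30 ± 0.30) and Marveld3, a relative of occludin (-1.21 ± 0.26). Of 21 plaque and polarity genes, 10 were lower and 3 higher, led by the polarity kinase Prkcz (-1.24 ± 0.28), cingulin, Cgn (-0.88 ± 0.21), and the scaffold Tjp3 (-0.84 ± 0.24). Of 19 claudin partners and epithelial regulators, 14 were lower and 1 higher, among them the vitamin D receptor Vdr (-1.63 ± 0.36), the membrane protease Prss8 (-1.26 ± 0.32) and the epithelial transcription factor Grhl2 (-1.19 ± 0.22). Adherens junction and desmosome genes had 7 of 17 lower and 1 higher, with Cdh1, the epithelial cadherin, at -0.84 ± 0.19, and 7 of the 10 pan-epithelial genes were lower. Of 12 cytokines known to change claudins, 7 were higher and 1 lower, led by Il1b (3.55 ± 0.59) and Il6 (2.62 ± 0.56), with Il18, an epithelial cytokine, at -1.46 ± 0.48. The part of cell composition in the members' differences was not tested.

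In Timp1 knockout mice no member passed between acute DSS and control. The count was 0 of 10 in limma's test, where 1.12% of all genes passed, and 0 of 10 at an unadjusted p under 0.05, where 16.3% did. The members' median difference was -0.23 against 0.00 over all genes. Ocln stood at 10.33, 10.37 and 10.12 in knockout controls and at 9.44 (lowest), 9.96 (median) and 10.13 (highest) on DSS, a difference of -0.37 ± 0.28 with a 95% interval from -0.95 to 0.20. Cldn8 stood at 10.30, 10.30 and 10.69 in controls and between 9.81 and 11.19 with a median of 10.80 on DSS (0.14 ± 0.53, interval -0.94 to 1.22). Cldn1 stood between 6.62 and 6.89 in controls and between 6.56 and 7.51 on DSS (0.08 ± 0.35, interval -0.64 to 0.79). Cldn12 was the 1 member without overlap, as were 6.47% of all genes, at 9.80 to 9.88 in controls and 9.28 to 9.80 on DSS (-0.18 ± 0.13, adjusted p = 0.542). The knockout acute controls were all of 1 animal series, while 3 of the DSS mice were of that series and 3 of another. Within the shared series (3 mice per group), Cldn8 differed by -0.22 ± 0.28 and Ocln by -0.40 ± 0.19. In that limma fit 0 of all genes passed.

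Between genotypes under acute DSS, all 10 members passed, where 30.9% of all genes did. The knockouts had higher Cldn2, Cldn3, Cldn7, Cldn8, Cldn12, Cldn15, Cldn23 and Ocln (8 members, against 15.8% of all genes) and lower Cldn1 and Cldn4 (2 members, against 15.2%). Cldn1 stood at 6.56 (lowest), 6.69 (median) and 7.51 (highest) in 6 knockouts against the 5 wild-type values given above (-1.74 ± 0.30, adjusted p = 6.10e-05). Cldn4 stood at 9.43, 9.83 and 10.76 (lowest, median, highest) in the knockouts and at 10.22, 11.34, 10.44, 10.68 and 10.89 in wild types (-0.78 ± 0.19, adjusted p = 0.00205); 1 knockout, replicate 4, lay within the wild-type range. The higher members ranged from 0.51 ± 0.11 for Cldn12 to 1.28 ± 0.45 for Cldn8, with Ocln at 0.93 ± 0.24 (adjusted p = 0.0039). Arrays of the 2 genotypes overlapped for every member, and for all but 6% of all genes.

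These calls depended on the arrays in the fit. Fitted on the 11 arrays of this comparison alone, 1 member passed, Cldn1 (-1.74 ± 0.44, adjusted p = 0.0323), where 11.2% of all genes did, and Cldn4 was at an adjusted p of 0.0602. With single arrays left out, the Cldn8 and Cldn23 calls were each lost for 6 of the 11 arrays, Cldn15 for 3 and Cldn2 for 1, wild-type replicate 3, without which 6 members passed. Without wild-type acute DSS replicates 1 and 3, 3 members passed, where 12.5% of all genes did: Cldn1 (-1.03), Cldn4 (-1.04) and Cldn7 (0.27). The other 7 were then between 0.05 and 0.43, Ocln at 0.19 (adjusted p = 0.266) and Cldn8 at 0.43 (adjusted p = 0.579). Relative to epithelial genes, 4 members passed with all arrays in the fit, where 73.3% of all genes did. Cldn1 was lower by -2.25 ± 0.38 and Cldn4 by -1.30 ± 0.19 on that scale, where 71.6% of all genes were lower. Ocln was higher by 0.41 ± 0.13 and Cldn3 by 0.30 ± 0.11, where 1.74% of all genes were higher, and Cldn8 (0.76) and Cldn12 (0.00) did not pass. The subtracted mean was itself higher in the knockouts, which shifts every gene downwards, and the median difference was -0.49 over all genes and 0.23 over the members. Without replicate 1 alone 2 members passed on that scale, and without replicates 1 and 3 Cldn1 (-1.10) and Cldn4 (-1.11) passed, where 8.26% of all genes did. Within the series that holds all wild-type acute mice and knockout DSS replicates 1 to 3, Cldn4 was the 1 member that passed (-0.99 ± 0.25, adjusted p = 0.036), where 15.6% of all genes did, and Cldn1 was at -1.66 ± 0.61 (adjusted p = 0.0993).

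The test of whether DSS acted differently in the genotypes is the interaction. In the acute protocol 2 of 10 members passed it, Cldn12 (0.87 ± 0.19, adjusted p = 0.00527) and Cldn8 (2.33 ± 0.76, adjusted p = 0.0418), where 12.3% of all genes did. Both were positive, as were 6.51% of all genes, and wild types had the more negative DSS difference. For Cldn12 the call held without any 1 of the 17 acute arrays (0.73 to 0.97) and without replicates 1 and 3 together (0.60, adjusted p = 0.0191), but not when the acute arrays were fitted alone (adjusted p = 0.0644). The Cldn8 call was lost without any of 12 of the 17 arrays, with animal series in the model (1.97, adjusted p = 0.132) and without replicates 1 and 3 (1.48, adjusted p = 0.18). The control means also enter the interaction. Cldn12 was at 10.19 in wild-type and 9.83 in knockout controls (-0.36, adjusted p = 0.29) and Cldn8 at 11.49 and 10.43 (-1.06, adjusted p = 0.484). Neither control difference passed in the fit on all arrays. Fitted on the acute controls alone, both passed by limma (adjusted p = 0.0378 for Cldn12 and 0.00542 for Cldn8), where 964 of 19938 genes did. These controls are the groups whose genotype cannot be told apart from animal series. Cldn1, for which the genotypes differed most under DSS, had an interaction of -1.06 ± 0.50 (adjusted p = 0.16), and Ocln one of 1.05 ± 0.41 (adjusted p = 0.0842).

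**Figure D3:**
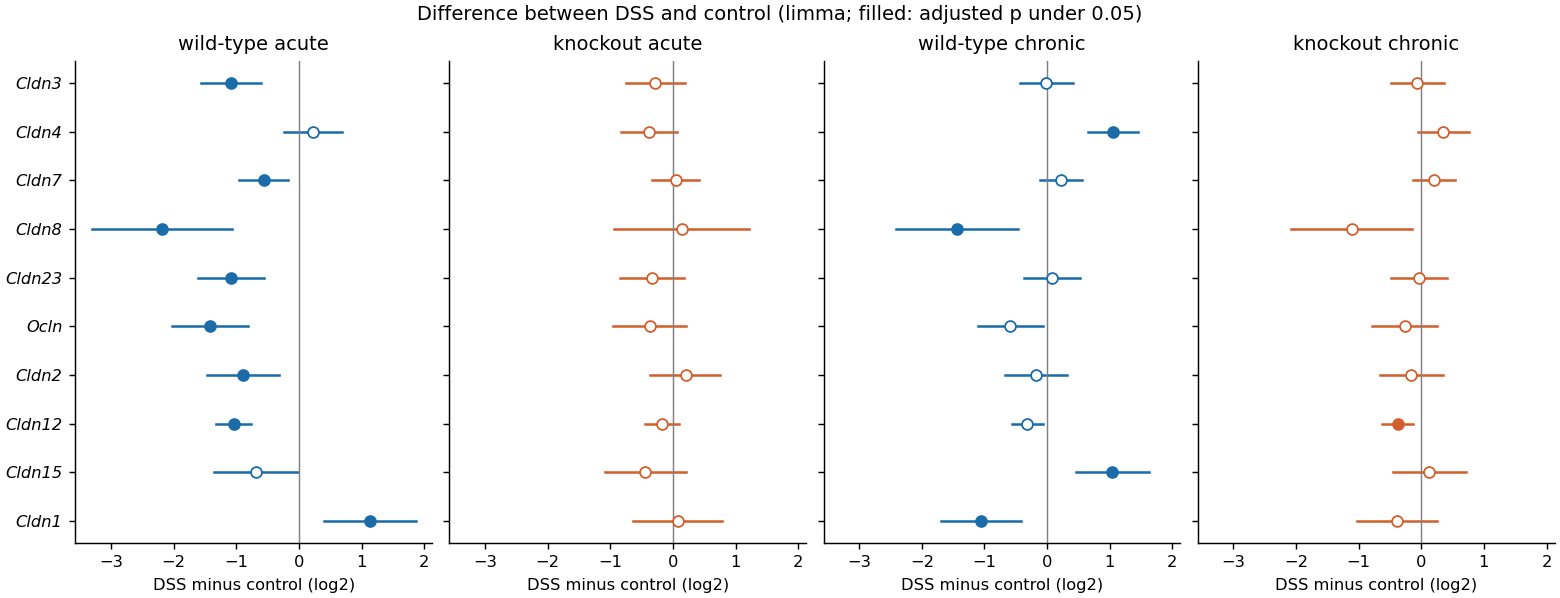
DSS minus control in log2 units with 95% interval (horizontal axis) for each member (vertical axis) in 4 settings, wild type in blue and knockout in orange, with filled points for calls at an adjusted p under 0.05. Calls numbered 8 in wild-type acute, 0 in knockout acute, 4 in wild-type chronic and 1 in knockout chronic mice.

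Chronic colitis in wild-type mice moved single members in opposite directions. Cldn4 and Cldn15 rose and Cldn1 and Cldn8 fell, 4 of 10 members where 14.4% of all genes passed (5.79% higher and 8.58% lower). The groups did not overlap for 5 of 10, Cldn1, Cldn4, Cldn7, Cldn12 and Ocln, nor for 15% of all genes. Cldn4, a sealing claudin of the colonic surface, stood at 10.40, 10.56, 9.93, 10.33 and 10.54 in controls and at 11.51, 11.31, 11.18, 11.82 and 11.20 on DSS. Every DSS mouse was above every control, and the rise was 1.05 ± 0.20 (2.07-fold, adjusted p = 4.16e-04). Cldn15 stood at 9.64, 9.73, 9.79, 10.72 and 10.42 in controls and at 11.26, 11.43, 10.55, 10.75 and 11.51 on DSS, where 1 DSS mouse was below the highest control (1.04 ± 0.29, adjusted p = 0.0123). Cldn1 stood at 7.97, 7.99, 8.20, 7.35 and 7.37 in controls and at 6.61, 6.82, 6.73, 6.83 and 6.61 on DSS, all below every control, and fell by 1.05 ± 0.31 (adjusted p = 0.0208), a call lost without control replicate 2 (adjusted p = 0.0512) or 3 (adjusted p = 0.0623). Its direction was opposite to that in the acute protocol. The chronic DSS values of Cldn1 lay below the lowest array median (7.67), and how far they stood above background was not tested. Cldn8 stood at 11.33, 11.42, 10.94, 9.89 and 11.49 in controls and at 9.43, 9.11, 10.82, 9.88 and 8.64 on DSS, with overlap (-1.44 ± 0.48, adjusted p = 0.0381), and this call was lost when any 1 of 7 of the 10 arrays was left out (-1.46 to -1.21; adjusted p = 0.11 without DSS replicate 5).

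Ocln stood at 10.58, 10.63, 10.51, 10.37 and 10.52 in wild-type chronic controls and at 10.02, 9.83, 9.66, 10.04 and 10.14 on DSS. The groups did not overlap, but over all 37 arrays the difference of -0.59 ± 0.25 did not pass (adjusted p = 0.126). Cldn12 (-0.32 ± 0.12, adjusted p = 0.0723) and Cldn7 (0.22 ± 0.17, adjusted p = 0.45) likewise had no overlap and no call. The shared variance of the fit includes the wide wild-type acute DSS group. Fitted on the 10 arrays of this comparison alone, 7 members passed, where 20.2% of all genes did, with Ocln (-0.59 ± 0.09, adjusted p = 0.00108), Cldn12 and Cldn7 added. Cldn2, Cldn3 and Cldn23 were at -0.18, -0.01 and 0.08 and passed in none of these fits.

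Of the 10 pan-epithelial genes 0 passed by limma in this comparison, and their p values before adjustment were 0.196 or more. Their mean was 12.27 to 12.39 in controls and 12.22 to 12.41 on DSS. Relative to epithelial genes 4 members passed, where 2.82% of all genes did. Cldn4 was higher by 1.02 ± 0.20 and Cldn15 by 1.01 ± 0.21, where 0.958% of all genes were higher. Ocln was lower by -0.61 ± 0.14 (adjusted p = 0.00495) and Cldn8 by -1.47 ± 0.38 (adjusted p = 0.0219), where 1.87% of all genes were lower. As log2 signal, 8.58% of all genes were lower and 5.79% higher in this comparison. Crypt base genes had 2 of 5 lower, with Lgr5, the stem cell receptor, at -1.29 ± 0.27, and neutrophil genes had 4 of 5 higher, with S100a8 at 1.84 ± 0.54. Of the junction lists, other claudins had 1 of 17 higher (Cldn10, 0.39 ± 0.10), strand and tricellular genes 1 of 11 lower (Lsr, -0.56 ± 0.19), and plaque and polarity genes 3 of 21 lower and 1 higher, with the scaffolds Magi3 (-0.33 ± 0.11) and Magi1 (-0.30 ± 0.09) and the polarity protein Pard3 (-0.24 ± 0.07). The desmosomal cadherin Dsc2 was higher (0.88 ± 0.23), as was the intestinal transcription factor Cdx2 (1.62 ± 0.40), and Il1b (2.50 ± 0.51), Tnf (0.93 ± 0.25) and Tgfb1 (0.66 ± 0.20) were the 3 of 12 cytokines that rose.

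The wild-type chronic controls came from 2 animal series. Controls 1 to 3 shared their series with the wild-type chronic DSS mice, and controls 4 and 5 shared theirs with the knockouts. Cldn15 was at 9.64 to 9.79 in the first 3 and at 10.42 and 10.72 in the other 2, and Cldn1 at 7.97 to 8.20 and at 7.35 and 7.37. Against controls 1 to 3 alone, 5 members passed, where 15.5% of all genes did: Cldn1 (-1.33 ± 0.08, adjusted p = 3.39e-05), Cldn4 (1.11 ± 0.17), Cldn8 (-1.66 ± 0.40), Cldn15 (1.38 ± 0.21) and Ocln (-0.64 ± 0.11, adjusted p = 0.00465).

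4 Hox genes, which mark the position along the gut, were examined after their values were seen. Hoxb13, a gene of the most distal colon and rectum, was at 11.41 to 11.80 in wild-type acute controls and 6.35 to 7.84 on acute DSS (-4.24 ± 0.90, adjusted p = 3.58e-04), and at 11.45 to 11.65 in wild-type chronic controls and 6.83 to 10.70 on chronic DSS (-2.70 ± 0.78, adjusted p = 0.017). It was also lower in knockout chronic DSS (-2.68 ± 0.78, adjusted p = 0.0297), where 1 member passed, and did not pass in knockout acute DSS (-1.32 ± 0.87, adjusted p = 0.47). Its Pearson correlation over 37 arrays was 0.73 with Cldn8 and 0.74 with Cldn12, and within groups 0.49 and 0.33. Hoxd13, of the same region, was at 11.37 to 11.48 in wild-type chronic controls 1 to 3 and at 8.81 and 9.13 in controls 4 and 5, against 7.33 to 8.56 on chronic DSS (-2.64 ± 0.49 over the groups, adjusted p = 3.62e-04). It passed neither in wild-type acute DSS (-0.79 ± 0.57, adjusted p = 0.267) nor with DSS in the knockouts. Its correlation with Cldn15 was -0.50 over all arrays and -0.80 within groups, and with Cldn1 0.33 and 0.64. Hoxb9 and Hoxb6 passed in none of the 4 comparisons of DSS with control. Between genotypes under acute DSS, Hoxb9 (0.68 ± 0.20, adjusted p = 0.0106) and Hoxb13 (1.93 ± 0.74, adjusted p = 0.0471) were higher in the knockouts, as were 15.8% of all genes. Hoxd13 (0.62 ± 0.47) and Hoxb6 (0.61 ± 0.44) did not pass there. None of these Hox genes passed between the acute controls, where Hoxb6 differed by 1.70 ± 0.59 (adjusted p = 0.16). Nor did any pass between the chronic controls, where Hoxd13 differed by -1.55 ± 0.49 (adjusted p = 0.24). Hoxb9 ran the other way from Hoxd13, with correlations of 0.83 over all arrays and 0.78 within groups with Cldn15 and -0.79 and -0.64 with Cldn1. This was not particular to Cldn15: Hoxb9 had 0.79 and 0.79 with Cldn23, 0.76 and 0.67 with Cldn7, and 0.72 and 0.67 with Cldn3. With Cldn8 it had 0.10 and -0.03. Hoxb6 had 0.42 and 0.32 with Cldn15 and -0.48 and -0.39 with Cldn1. The arrays share tissue samples and normalization, so these values are a description, and the part of the sampled segment in the members' differences was not tested.

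**Figure D4:**
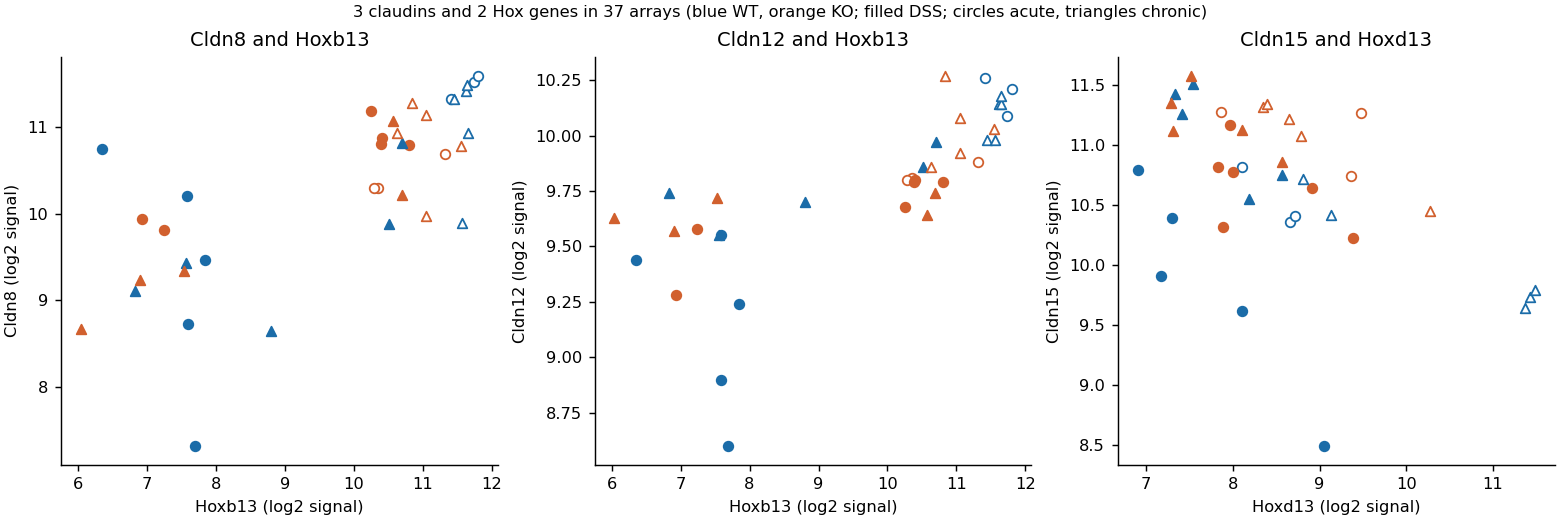
Log2 signal of Cldn8 and Cldn12 against Hoxb13, and of Cldn15 against Hoxd13 (both axes), in 37 arrays, with circles for acute and triangles for chronic, blue for wild type, orange for knockout and filled symbols for DSS. The 3 wild-type chronic controls with Hoxd13 at 11.37 or above had Cldn15 at 9.64 to 9.79.

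In knockout mice on chronic DSS, 1 of 10 members passed, where 7.94% of all genes did. Cldn12 stood at 9.92, 10.03, 10.08, 10.27 and 9.86 in controls and at 9.74, 9.72, 9.57, 9.63 and 9.64 on DSS, without overlap, and fell by 0.37 ± 0.12 (adjusted p = 0.0488), a call lost when any 1 of 9 of the 10 arrays was left out. Lower calls made up 5.47% of all genes, and 8.35% did not overlap. Cldn8 stood at 9.97, 10.78, 11.14, 11.28 and 10.93 in controls and at 10.22, 9.34, 9.23, 8.67 and 11.08 on DSS (-1.11 ± 0.48, adjusted p = 0.147). Cldn4 was at 10.17 to 10.70 in controls and 10.43 to 11.06 on DSS (0.35 ± 0.20, adjusted p = 0.289), and Cldn15 differed by 0.13 ± 0.29. Ocln differed by -0.26 ± 0.25 and did not pass (adjusted p = 0.578). With limma fitted on the arrays of this comparison alone, Ocln (-0.26 ± 0.07, adjusted p = 0.0348) and Cldn12 (adjusted p = 0.0196) passed, where 1501 of 19938 genes did. Relative to epithelial genes 0 of 10 passed by limma, where 0.296% of all genes did. Before adjustment 3 of 10 were under 0.05, but the share of all genes under that value was not computed on this scale. That count therefore cannot be judged. Between genotypes on chronic DSS none of the 10 passed by limma, where 2.48% of all genes did (1 of 10 at an unadjusted p under 0.05, where 16.9% did). That member was Cldn4, with every knockout below every wild type, a separation found for 3.15% of all genes (-0.63 ± 0.20, adjusted p = 0.0786). The wild-type and the knockout chronic DSS mice were each of 1 animal series, so genotype and series cannot be told apart here. No member passed the chronic interaction (0 of 10 by limma), which 0.421% of all genes passed, and 2 of 10 had an unadjusted p under 0.05, as had 15.2% of all genes. Relative to epithelial genes, the chronic controls differed between genotypes for 1 of 10 members, Cldn15 (1.05 ± 0.21, adjusted p = 0.0265), where 0.0602% of all genes differed, and that call was lost with animal series in the model and without any 1 of 7 of the 10 arrays.

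The chronic and the acute DSS effect in wild types differed for 6 of 10 members, where 17% of all genes differed (9.3% higher and 7.71% lower in the chronic protocol). Cldn1 differed by -2.19 ± 0.48 (adjusted p = 0.00292), which joins the acute rise and the chronic fall. Cldn15 differed by 1.73 ± 0.44 (adjusted p = 0.00733), Cldn23 by 1.17 ± 0.34, Cldn3 by 1.08 ± 0.32, Cldn7 by 0.77 ± 0.25 and Cldn12 by 0.73 ± 0.18, all towards higher values in the chronic protocol. Without wild-type acute DSS replicates 1 and 3, 4 members passed, where 7.48% of all genes did: Cldn1 (-1.48), Cldn3 (0.50), Cldn12 (0.46) and Cldn15 (1.21). Cldn7 (0.33, adjusted p = 0.114) and Cldn23 (0.64, adjusted p = 0.119) did not pass. Of single arrays, any 1 of 5 of the 18 ended the Cldn7 call when left out, acute control replicate 3 ended the Cldn3 call (adjusted p = 0.0519) and acute control replicate 2 the Cldn23 call (adjusted p = 0.0598). Cldn8 did not differ detectably (0.75 ± 0.73, interval -0.73 to 2.23), nor did Ocln (0.84 ± 0.39, adjusted p = 0.132). In the knockouts 0 of 10 passed this comparison by limma and 0.01% of all genes did (1 of 10 and 11.4% unadjusted). Relative to epithelial genes, Cldn1 (-2.80 ± 0.61), Cldn3 (0.47 ± 0.17) and Cldn15 (1.12 ± 0.32) passed, where 32.9% of all genes did. That count was 1 without acute DSS replicate 1 or acute control replicate 3 and 0 without acute control replicate 2. Without acute DSS replicates 1 and 3 together Cldn1 (-1.65) and Cldn15 (1.04) passed, where 8.52% of all genes did. As log2 signal and fitted on the wild-type arrays alone, Cldn1, Cldn12 and Cldn15 passed, where 15.6% of all genes did.

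The balance between sealing and pore-forming members was also computed per array. In wild types of the acute protocol, the mean of the 6 sealing members minus Cldn2, in log2 units, averaged 1.56 ± 0.08 without DSS (SD, n = 3) and 1.42 ± 0.23 (n = 5) with it, and 1.36 ± 0.14 and 1.42 ± 0.42 in the wild-type chronic groups (n = 5 each). It ranged from 1.22 ± 0.27 in knockout acute DSS (n = 6) to 1.62 ± 0.43 in knockout acute controls (n = 3). The sealing mean minus the mean of the 3 pore-forming members was 0.85 ± 0.26 in wild-type chronic controls and 0.56 ± 0.28 on chronic DSS. In the wild-type acute groups it was 0.84 ± 0.07 without DSS and 0.70 ± 0.31 with it. Knockouts were at 0.58 ± 0.19 in chronic controls and 0.56 ± 0.38 on chronic DSS, and at 0.63 ± 0.17 in acute controls and 0.58 ± 0.11 on acute DSS. Both scores depended on Cldn4. Without it, the sealing mean minus Cldn2 in wild-type chronic mice went from 1.42 ± 0.13 in controls to 1.25 ± 0.39 on DSS, where with it the mean was higher on DSS. The sealing mean without Cldn4 minus the pore-forming mean was 0.92 ± 0.27 in wild-type chronic controls and 0.39 ± 0.26 on DSS, and 0.52 ± 0.36 in wild-type acute DSS beside 0.51 ± 0.38 in knockout chronic DSS. No test was made of these scores.

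**Figure D5:**
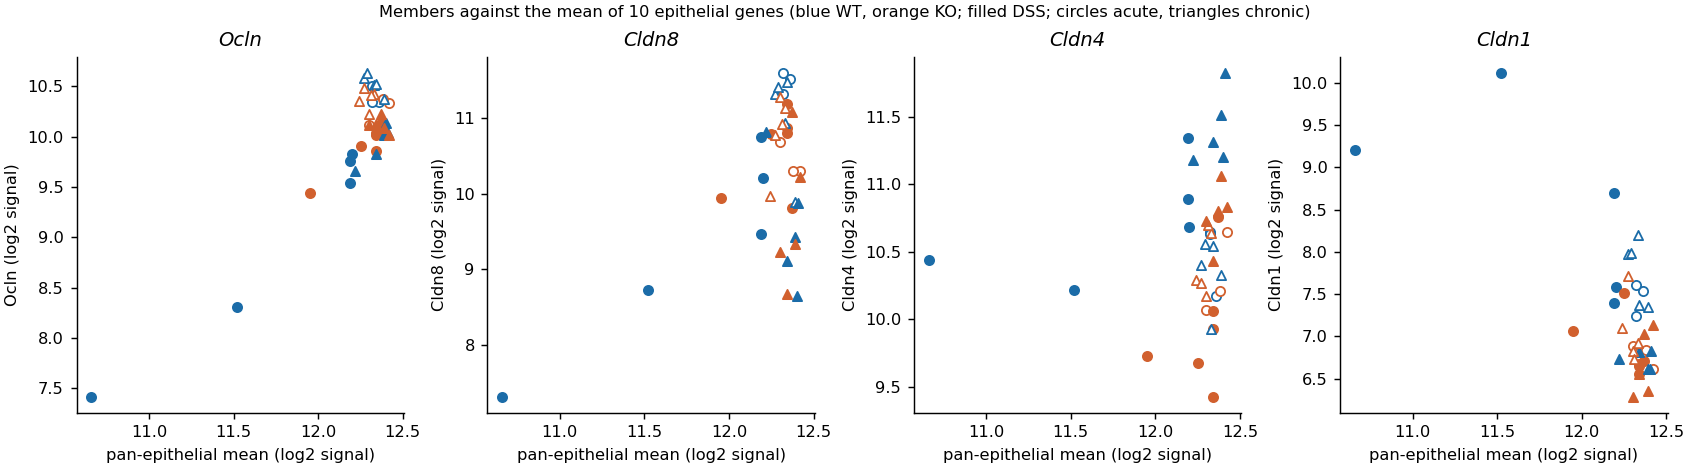
Log2 signal of Ocln, Cldn8, Cldn4 and Cldn1 (vertical axes) against the mean of 10 epithelial genes (horizontal axis) in 37 arrays, with circles for acute and triangles for chronic, blue for wild type, orange for knockout and filled symbols for DSS. Ocln followed the epithelial mean (r = 0.90), Cldn1 ran against it (r = -0.68) and Cldn4 showed little relation (r = 0.15).

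The members varied together to different degrees. Across the 37 arrays, which share the groups and the 2 arrays with low epithelial genes, Pearson's r with the pan-epithelial mean was 0.95 for Cldn3, 0.90 for Ocln, 0.86 for Cldn7, 0.81 for Cldn23, 0.73 for Cldn2, 0.72 for Cldn12, 0.70 for Cldn15, 0.53 for Cldn8, 0.15 for Cldn4 and -0.68 for Cldn1. Cldn3 and Ocln followed each other most closely (r = 0.93), and Cldn1 ran against Cldn7 and Cldn15 (r = -0.80 for both). The genes most like Ocln over all arrays were Slc5a8, Cryl1 and Sort1 (r = 0.97 for each), those most like Cldn8 were Rdh16 (0.86), Il18 (0.84) and Slc1a1 (0.83), and those most like Cldn2 were Kcnq1 (0.84), Clint1 (0.84) and Faah (0.83). The genes most like Cldn1 were Lama2, a laminin of basement membranes (0.90), Musk (0.90) and Vstm4 (0.89), none of them an epithelial junction gene. Genes of stratified squamous epithelium, in which Cldn1 is abundant, were listed after its values were seen: Krt5, Krt14, Trp63, Krt13, Krt4 and Krt6a. Their mean was 6.82 to 7.01 in wild-type acute controls and 6.96 to 7.03 on acute DSS, where Cldn1 reached 10.11. By limma Krt14 was lower there (-0.26 ± 0.11, adjusted p = 0.0463), and the others, from 0.09 for Trp63 to 0.25 for Krt6a, did not pass. The part of squamous tissue in the Cldn1 values was not tested.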

How the data were processed

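Colon RNA was measured on 1 Affymetrix Mouse Gene 1.0 ST array per mouse. The deposited log2 values are per transcript cluster. The submitters' processing notes name RMA, the robust multi-array average, with no version. No source names the log base; values from 3.03 to 14.96 fit base 2, which was assumed. Of 35511 clusters, 21789 carried 1 gene symbol; for 999 genes with several clusters the one with the highest mean was kept, leaving 19938 genes. Groups came from the sample titles; each title has its own animal number, and p values measure the spread between these animals. The number of arrays limits the precision.

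limma 3.58.1 (R 4.3.3) was fitted to all 37 arrays with 8 group means, and p values (two-sided) were adjusted by Benjamini-Hochberg over all genes. On simulated data for wild-type acute DSS it recovered 70%, 90% and 98% of differences of 0.5, 1 and 2 log2 units, with 1.69% false calls. The simulation gave each gene the same spread in all groups and drew genes independently. In the data wild-type acute DSS was wider than its controls (SD of Cldn8 1.35 against 0.14), so these rates may not hold for that comparison. All members were reported; of every other list the 3 genes with the largest difference among those called, and the 3 genes most like Cldn1, Cldn2, Cldn8 and Ocln, could be named. Members and lists were chosen with earlier results of these data known. Alternatives were a trended robust prior, the dimmest 33.33% of genes left out, cyclic loess, animal series as covariate, 1 series alone (added after the data were seen), the arrays compared alone, Epcam as reference, and arrays left out.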

Additional observations from a re-analysis of the deposited data

Results flagged for a closer look

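Single arrays stood apart from the rest of their group in 2 of 60 sets of values examined, about what chance gives (1 in 20). Cldn2 was 8.54 in wild-type chronic DSS replicate 4, against 9.17 to 9.35 in the other 4 mice. Cldn3 was 11.84 in wild-type chronic DSS replicate 5, against 11.59 to 11.65 in the others.

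The acute DSS effect differed between genotypes for Cldn8 (2.33, adjusted p = 0.0418) and Cldn12 (0.87, adjusted p = 0.00527), by limma's interaction test. In wild types the chronic and the acute DSS effect differed for Cldn1 (-2.19), Cldn3 (1.08), Cldn7 (0.77), Cldn12 (0.73), Cldn15 (1.73) and Cldn23 (1.17), with adjusted p from 0.00292 to 0.0341. Without wild-type acute DSS replicates 1 and 3 the calls of Cldn8, Cldn7 and Cldn23 were lost. The acute wild-type groups enter both sets of differences.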

How the results depend on the processing

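Counts of members called are given against the fit on all arrays. With only the arrays compared they were 2 against 8 in wild-type acute DSS, 7 against 4 in wild-type chronic DSS and 2 against 1 in knockout chronic DSS. Between acute controls they were 3 against 0, and between genotypes on acute DSS 1 against 10. For the acute interaction they were 0 against 2, and for chronic against acute DSS in wild types 3 against 6. In those fits, in that order, 5751, 4029, 1501, 964, 2239, 536 and 3117 of 19938 genes passed. Without wild-type acute DSS replicates 1 and 3 the member counts were 5 in wild-type acute DSS, 3 between genotypes on acute DSS and 1 for the acute interaction. All genes passing then numbered 5908, 2486 and 1159. The count for the acute interaction was also 1 with cyclic loess, where 2250 of all genes passed, and 1 with animal series, where 1308 did. Within 1 series the count between genotypes on acute DSS was 1, where 15.6% of all genes passed. Relative to epithelial genes, only the arrays compared gave 2 against 7 in wild-type acute DSS, 3 against 0 in knockout chronic DSS (also 3 with Epcam as reference), 2 against 0 between acute controls, 2 against 4 between genotypes on acute DSS, 0 against 3 for chronic against acute DSS, and 0 against 1 between chronic controls, the last also 0 with animal series and within 1 series. Without replicates 1 and 3 the relative count was 4 in wild-type acute DSS, where 31.5% of all genes passed. Between genotypes on acute DSS it was 2, where 8.26% of all genes passed, and 1 series alone also gave 2. Why counts moved was not tested, beyond the variance that the groups share in the full fit. Shares of all genes are not given for the other relative alternatives or for single arrays left out. Those counts therefore cannot be set against a general change in calls.

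Leaving out each array gave 6 to 9 members in wild-type acute DSS, 2 to 4 in wild-type chronic DSS, 0 to 1 in knockout chronic DSS, 6 to 10 between genotypes on acute DSS (6 without wild-type replicate 3), 0 to 1 between chronic controls, 1 to 7 for the acute interaction and 4 to 7 for chronic against acute DSS. The relative counts were 6 to 7, 3 to 4, 2 to 6 (between genotypes on acute DSS), 0 to 1 (between chronic controls), 0 to 4 (acute interaction) and 0 to 4 (chronic against acute DSS). No called difference of a member changed sign under any alternative run. The trended robust prior and the dimmest 33.33% of genes left out moved no count of members by over 1.5 times. Each member had 1 cluster, so other clusters could not be tried. No paired analysis was possible because replicate numbers follow accession order only and pair no animals.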
